A study of Arabidopsis thaliana with 4 samples.

Results

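The 4 Arabidopsis leaf methylomes were read as a 2 by 2 design, with CCR4A and CCR4B mutated or not and DDM1 and RDR2 mutated or not. For each 100 bp bin, the change that goes with ccr4a ccr4b was taken in the ddm1 rdr2 background (ccr4a ccr4b ddm1 rdr2, the quadruple mutant, minus ddm1 rdr2) and in the wild-type background (ccr4a ccr4b minus WT). The second was subtracted from the first, and the result, in percentage points of methylation, is called the background difference. It is 0 where mutation of the CCR4 genes goes with the same change in either background, and positive where the change in ddm1 rdr2 lies above that in the wild-type background. A bin entered for a sequence context (CG, CHG or CHH, where H is A, C or T) if it held at least 4 cytosines of that context, each with at least 4 calls in all 4 libraries. This held for 301665 CG bins, 334928 CHG bins and 546338 CHH bins. In sum these are 1182931 of the 2846562 bins with at least 4 listed cytosines of a context (41.6%), at 549459 positions of the nuclear genome.

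All plants were of the accession Columbia (Col-0), grown on soil in long days, and DNA came from leaves at 6 weeks. The 4 groups, with 1 enzymatic methyl-seq library each, were WT, the double mutants ccr4a ccr4b and ddm1 rdr2, and the quadruple mutant ccr4a ccr4b ddm1 rdr2. The assay converts unmethylated cytosines by enzymes while methylated ones are protected, so that a retained C is read as a methylated call. The alleles, the number of plants per library and the number of generations for which mutants were kept are not given in the sources used here. No genotype had a replicate, so no difference between genotypes could be tested. The intervals below cover counting error only and hold no spread between plants or libraries. They treat each call as independent, and the handling of PCR copies is not given in the sources used here, so they may be too narrow.

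CCR4 proteins are catalytic subunits of the CCR4-NOT complex, which trims the poly(A) tails of RNA. The protein DDM1 is a chromatin remodeller that gives methyltransferases access to the DNA of transposons and other heterochromatin. RDR2 makes double-stranded RNA for the small RNA pathway that directs DNA methylation, above all CHH methylation. Plant CG methylation is copied after replication by MET1, CHG methylation is maintained by CMT3 together with methylation of histone H3, and CHH methylation is set by CMT2 and by the small RNA pathway.

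The nuclear calls of a library numbered between 574097022 (ccr4a ccr4b) and 785451909 (the quadruple mutant). Depth was most uneven in ccr4a ccr4b, where the 1% of cytosines with the most calls held 25.6% of all calls, against 8.35% to 11.2% in the other libraries. The median CG bin held 219 calls for WT, 117 for ccr4a ccr4b, 208 for ddm1 rdr2 and 222 for the quadruple mutant. Bins, not calls, were therefore given equal weight. The methylated share of chloroplast CG calls, a measure of incomplete conversion, was between 0.0861% and 0.108%.

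Sequences of 5 stretches are shown first, because the regions described most fully below begin with them. They are the CG region with the most called bins for each direction and background, and the region with the most called bins of any context. Each is the first 300 bases of its region on the + strand, in the build of the deposited files, a reference called ColCEN. The letters were spelled out from the positions and trinucleotides of the files, which leave 50 to 66 bases of each stretch unspelled (n, an A or a T). Capitals mark the cytosines of the context, as C on the + strand and as G for the - strand. The first 4 stretches hold 22 to 32 CG cytosines at a GC content of 45.3% to 48.3%, and the last holds 84 CHH cytosines at a GC content of 44.0%.
chr2:12270301-12270600, CG: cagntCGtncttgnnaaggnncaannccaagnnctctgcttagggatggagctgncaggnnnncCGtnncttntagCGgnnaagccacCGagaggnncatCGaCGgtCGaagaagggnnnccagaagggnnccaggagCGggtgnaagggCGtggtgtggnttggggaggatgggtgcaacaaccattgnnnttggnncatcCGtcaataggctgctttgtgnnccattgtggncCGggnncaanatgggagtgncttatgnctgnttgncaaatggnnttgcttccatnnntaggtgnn
chr4:11650201-11650500, CG: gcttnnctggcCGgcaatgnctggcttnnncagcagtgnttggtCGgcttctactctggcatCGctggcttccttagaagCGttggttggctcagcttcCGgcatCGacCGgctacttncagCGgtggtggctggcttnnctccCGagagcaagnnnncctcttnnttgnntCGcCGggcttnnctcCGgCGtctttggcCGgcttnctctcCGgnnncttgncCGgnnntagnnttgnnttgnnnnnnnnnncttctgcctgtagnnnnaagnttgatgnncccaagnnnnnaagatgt
chr3:132501-132800, CG: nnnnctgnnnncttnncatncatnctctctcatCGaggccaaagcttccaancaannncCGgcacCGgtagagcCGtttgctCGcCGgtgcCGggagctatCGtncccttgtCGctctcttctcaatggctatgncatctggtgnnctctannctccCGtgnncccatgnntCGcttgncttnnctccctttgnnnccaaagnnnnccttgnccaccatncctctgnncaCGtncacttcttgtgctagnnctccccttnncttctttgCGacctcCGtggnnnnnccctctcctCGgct
chr5:16621201-16621500, CG: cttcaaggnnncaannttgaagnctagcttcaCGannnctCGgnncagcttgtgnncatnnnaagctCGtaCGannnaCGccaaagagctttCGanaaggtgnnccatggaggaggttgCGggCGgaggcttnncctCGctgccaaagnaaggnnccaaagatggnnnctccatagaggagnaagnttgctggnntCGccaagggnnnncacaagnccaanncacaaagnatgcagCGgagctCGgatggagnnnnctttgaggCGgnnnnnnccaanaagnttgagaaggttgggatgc
chr5:5200901-5201200, CHH: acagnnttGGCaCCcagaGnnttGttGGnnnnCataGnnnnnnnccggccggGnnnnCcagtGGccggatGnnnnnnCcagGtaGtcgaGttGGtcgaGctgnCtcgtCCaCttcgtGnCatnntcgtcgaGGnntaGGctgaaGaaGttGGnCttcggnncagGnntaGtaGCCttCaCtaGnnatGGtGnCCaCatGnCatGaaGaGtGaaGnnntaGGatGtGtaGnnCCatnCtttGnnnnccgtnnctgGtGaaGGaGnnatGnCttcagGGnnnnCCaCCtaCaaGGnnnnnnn

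Over all nuclear bins the background difference was small in each context, and its median was 0. Mean CG methylation per bin was 35.2% for WT, 34.3% for ccr4a ccr4b, 14.4% for ddm1 rdr2 and 14.6% for the quadruple mutant. The CG change with ccr4a ccr4b was thus -0.906 points in the wild-type background and 0.198 points in ddm1 rdr2, a background difference of 1.10 points (95% counting interval 1.08 to 1.12). Mean CHG methylation was 11.6%, 11.9%, 2.93% and 2.84% in the same order, and its background difference was -0.346 points (-0.362 to -0.331). The background difference lay within 5 points of 0 in 61.8% of CG, 81.2% of CHG and 87.5% of CHH bins, and was exactly 0 in 32.6%, 45.5% and 46.1%. These means rest on the equal weight of bins. When all calls were pooled, the CG value became -4.31 points, the CHG value -4.23 points and the CHH value 0.149 points, and without the most deeply covered cytosines the CHG value was -0.153 points.

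Averaged over bins, CHH methylation was lower with ccr4a ccr4b in both backgrounds, and by nearly the same proportion. Mean CHH methylation per bin was 3.66% for WT, 2.88% for ccr4a ccr4b, 1.27% for ddm1 rdr2 and 0.986% for the quadruple mutant. In points, the change was -0.786 in the wild-type background and -0.280 in ddm1 rdr2, a background difference of 0.506 points (0.498 to 0.515). As a proportion, ccr4a ccr4b kept 78.5% of the CHH level of WT, and the quadruple mutant kept 77.9% of the level of ddm1 rdr2. On the scale of the natural log of the odds of these means, both changes were -0.25. This depended on the equal weight of bins: for pooled calls the changes were -0.077 and -0.22, and in the arms 0.086 and -0.10. The share kept in the wild-type background was alike on all 5 chromosomes, from 78.1% to 78.8%. The share kept in ddm1 rdr2 ran from 69.3% on chromosome 5 and 76.5% on chromosome 3 to 84.8% on chromosome 1.

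The background difference varied by region, and regions were the arms, the pericentromere (within 2 Mb of the span of the satellite arrays), the satellite arrays and the other 10 kb windows within that span. In CG it was 0.985 points in the arms (231538 bins), 1.52 points in the pericentromere (65882 bins) and 6.73 points in satellite arrays (1419 bins). Satellite CG methylation was 76.8% for WT, 68.4% for ccr4a ccr4b, 4.28% for ddm1 rdr2 and 2.56% for the quadruple mutant. In points the satellite CG difference was larger in the wild-type background (-8.45 against -1.72). As a proportion it was larger in ddm1 rdr2, where 59.8% of the level was kept, against 89.0% in the wild-type background. These values depended on the equal weight of bins, since pooled calls gave -4.10 points in the arms, 0.301 points in the pericentromere and 1.60 points in satellite arrays. On the log odds scale of pooled calls the value was -0.17 in the arms and -0.40 in satellite arrays.

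**Figure D1:**
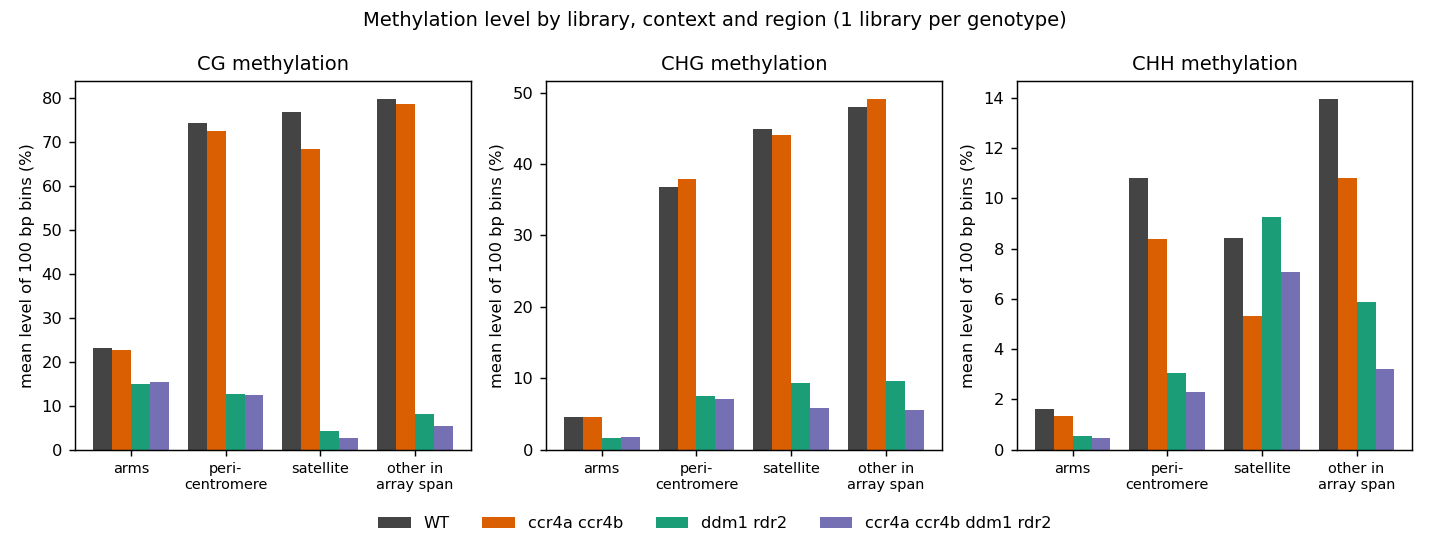
Mean methylation level of 100 bp bins (y axis, percent) in the arms, the pericentromere, the satellite arrays and the other windows within the array span (x axis), with a panel per context. Bars are the 4 libraries, 1 per genotype, so they carry no replicate error. In satellite CG they stand at 76.8%, 68.4%, 4.28% and 2.56%, and in satellite CHH the ddm1 rdr2 bar, at 9.25%, is the highest.

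The windows within the array span that were not satellite had the most negative CHG value of the 4 regions when bins were averaged. Their mean CHG methylation was 47.9% for WT, 49.2% for ccr4a ccr4b, 9.53% for ddm1 rdr2 and 5.56% for the quadruple mutant (3339 bins). The change was 1.23 points in the wild-type background and -3.97 points in ddm1 rdr2, a background difference of -5.20 points (-5.41 to -4.99). With pooled calls it was -2.42 points, beside -2.79 points in satellite arrays and -3.45 points in the arms, so this order did not hold. In CHH the same windows had 14.0%, 10.8%, 5.87% and 3.21%, so that 77.5% of the level was kept in the wild-type background and 54.7% in ddm1 rdr2. Pericentromeric CHG was also negative, at -1.61 points (-1.65 to -1.56). In the arms the CHG value was 0.0468 points, and it turned to -0.0619 points when the pericentromere was taken as 1 Mb.

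Pericentromeric CHH had a background difference of 1.64 points (1.62 to 1.66) over 106729 bins. The levels there were 10.8% for WT, 8.38% for ccr4a ccr4b, 3.05% for ddm1 rdr2 and 2.27% for the quadruple mutant. The shares kept, 77.6% and 74.5%, were close to each other, and on the log odds scale of pooled calls, not of these means, the value was -0.02. Satellite CHH differed in the order of the libraries, since it was higher in ddm1 rdr2 (9.25%) than in WT (8.43%). It was 5.30% in ccr4a ccr4b and 7.06% in the quadruple mutant, with shares kept of 62.9% and 76.3%. Satellite bins were shallow, with a median of 72 CHH calls in ccr4a ccr4b against 431 in the pericentromere, and the part of depth in these values was not tested.

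Bins were next sorted by the level from which they started, in WT and in ddm1 rdr2. A level and a difference taken from the same reads share their errors, since a bin read too high in WT also gives too low a difference from WT. Starting levels were therefore read on one strand and the differences on the other, in bins with at least 2 cytosines of the context on each strand, and each value below is the mean of both assignments. The classes were low, middle and high, with limits at 10% and 50% in CG, 5% and 20% in CHG, and 2% and 10% in CHH.

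In CHH the background difference varied with the level that ddm1 rdr2 had kept. Among bins high in WT but low in ddm1 rdr2, CHH methylation was 14.1% for WT, 11.2% for ccr4a ccr4b, 1.48% for ddm1 rdr2 and 1.37% for the quadruple mutant. The change was -2.89 points in the wild-type background and -0.106 points in ddm1 rdr2, a background difference of 2.78 points. The choice of these bins limits the change in ddm1 rdr2, which started at 1.48% and could not be lower by 2.89 points. The share kept was 79.6% in the wild-type background and 92.8% in ddm1 rdr2. Among bins high in both, the levels were 19.1%, 15.1%, 12.6% and 8.78%. There the changes were -3.99 and -3.85 points, a background difference of 0.135 points (0.102 on the + strand and 0.169 on the - strand). With level and difference from the same reads this class gave -1.502 points.

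**Figure D2:**
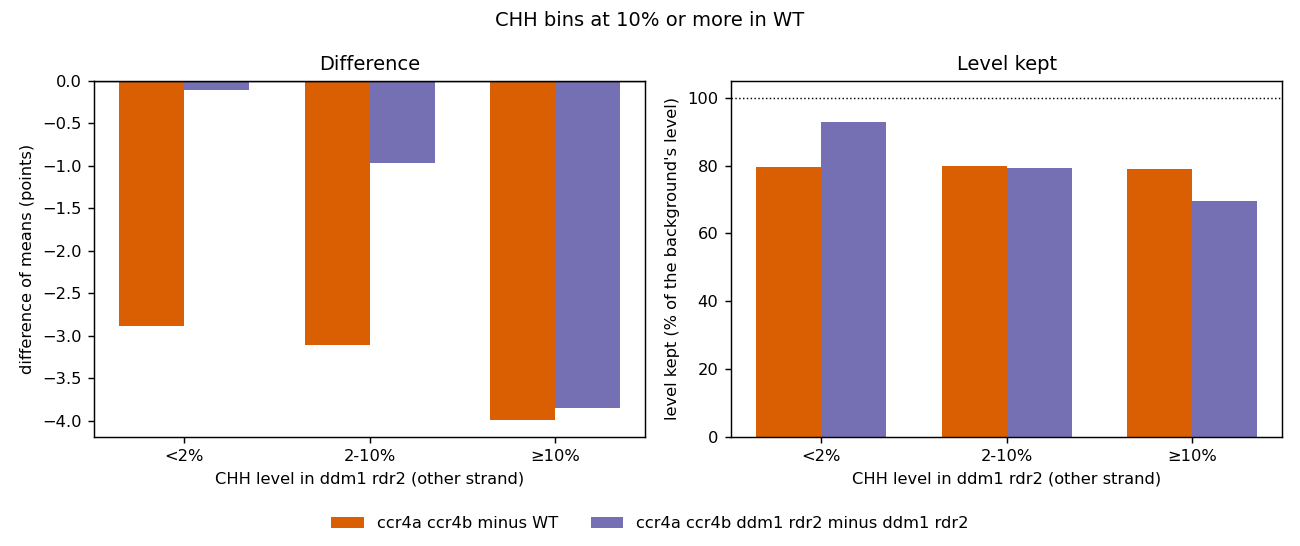
CHH bins at 10% or more in WT, split by the level in ddm1 rdr2 (x axis, percent), both read on the other strand. Left, the change with ccr4a ccr4b in points; right, the level kept as a percentage of that of the background. Orange bars are the wild-type background and purple bars the ddm1 rdr2 background, 1 library per genotype. The purple difference goes from -0.106 to -3.85 points while the orange one goes from -2.89 to -3.99 points.

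The near equality of the changes in CHH bins high in both combined opposite signs. Over all of them the share kept was 79.1% in the wild-type background and 69.5% in ddm1 rdr2. In the arms the shares were 80.8% and 83.2%, and the background difference was 2.23 points. In the pericentromere they were 77.6% and 60.5%, and the background difference was -0.988 points. In the other windows within the array span the quadruple mutant kept 42.0% of the level of ddm1 rdr2, while ccr4a ccr4b kept 82.4% of that of WT. By chromosome, the value was 1.69, 0.945 and 0.832 points on chromosomes 1, 2 and 4, and -0.591 and -0.980 points on chromosomes 3 and 5.

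CG bins high in WT had a positive background difference in each class of the ddm1 rdr2 level. It was 3.52 points in bins low in ddm1 rdr2, 3.09 points in the middle class and 3.33 points in bins high in both. In bins low in ddm1 rdr2 the changes were -2.29 points in the wild-type background and 1.23 points in ddm1 rdr2. The choice of those bins favours a positive value, since a high level has more room below it and a low one more room above it. In bins high in both, CG methylation was 78.1% for WT, 74.4% for ccr4a ccr4b, 69.9% for ddm1 rdr2 and 69.6% for the quadruple mutant. The change was -3.67 points in the wild-type background and -0.338 points in ddm1 rdr2. These bins too were chosen by their high levels in WT and ddm1 rdr2, which can favour a negative change in either background. The middle class also had a negative change from WT to ccr4a ccr4b, of -2.84 points. Bins low in WT instead had positive changes from WT to ccr4a ccr4b. These were 0.434, 9.14 and 21.7 points for ddm1 rdr2 low, middle and high. The cause of these signs was not tested. By region, bins high in both gave 3.49 points in the arms and 1.57 points in the pericentromere. The middle class gave 7.07 points in the arms, 0.162 points in the pericentromere and -6.67 points in the other windows within the array span, so the sign did not hold in every region. The ccr4a ccr4b library had the fewest calls in CG bins of the arms, with a median of 103 against 198 to 219 in the others, and the part of depth in these values was not tested.

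CG bins low in WT and high in ddm1 rdr2 numbered 601, or 0.199% of all CG bins, when classed on both strands together. Classed on the opposite strand, they were 573 bins for the + strand and 582 for the - strand. In these, CG methylation was 1.86% for WT, 23.5% for ccr4a ccr4b, 61.5% for ddm1 rdr2 and 40.7% for the quadruple mutant, a background difference of -42.5 points. The change in ddm1 rdr2 differed by chromosome. CG methylation of ddm1 rdr2 and the quadruple mutant was 60.7% and 23.6% on chromosome 1, 61.6% and 29.2% on chromosome 3, and 64.2% and 45.6% on chromosome 5. It was 59.3% and 59.0% on chromosome 2, and 60.8% and 57.9% on chromosome 4. The change in the wild-type background was between 17.9 and 25.9 points on each chromosome, and the background difference ran from -19.1 points on chromosome 2 to -58.3 points on chromosome 3. The choice of these bins limits the direction, since a level near 0 can hardly be lower in another library, and a high one has more room below it. The same holds for CHG, where bins low in WT and high in ddm1 rdr2 had 2.66%, 4.89%, 29.7% and 15.4%. The quadruple mutant kept 51.8% of the CHG level of ddm1 rdr2 there. In CG, the change in ddm1 rdr2 also set chromosomes 1, 3 and 5 apart from 2 and 4 in other classes. It was -9.02, -8.40 and -6.68 points against -0.0575 and -0.257 points in bins middle in WT and high in ddm1 rdr2. In bins middle in WT and low in ddm1 rdr2 it was 8.26, 7.05 and 6.08 points against 0.783 and 1.45 points. Bins high in WT and low in ddm1 rdr2 did not show this, with 2.20 points on chromosome 1 and 0.930 to 1.10 points elsewhere.

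CHG bins high in WT had a background difference of -1.004 points where ddm1 rdr2 was low and of -3.03 points where it was high. In the latter, CHG methylation was 56.3% for WT, 56.1% for ccr4a ccr4b, 31.6% for ddm1 rdr2 and 28.3% for the quadruple mutant. The change was -0.254 points in the wild-type background and -3.29 points in ddm1 rdr2. By region the background difference was -0.546 points in the arms, -4.56 points in the pericentromere and -14.7 points in the other windows within the array span. In those windows the quadruple mutant kept 45.7% of the CHG level of ddm1 rdr2, which was 27.5%. All 5 chromosomes had a negative value in this class, from -0.945 points on chromosome 1 to -4.83 points on chromosome 5.

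**Figure D3:**
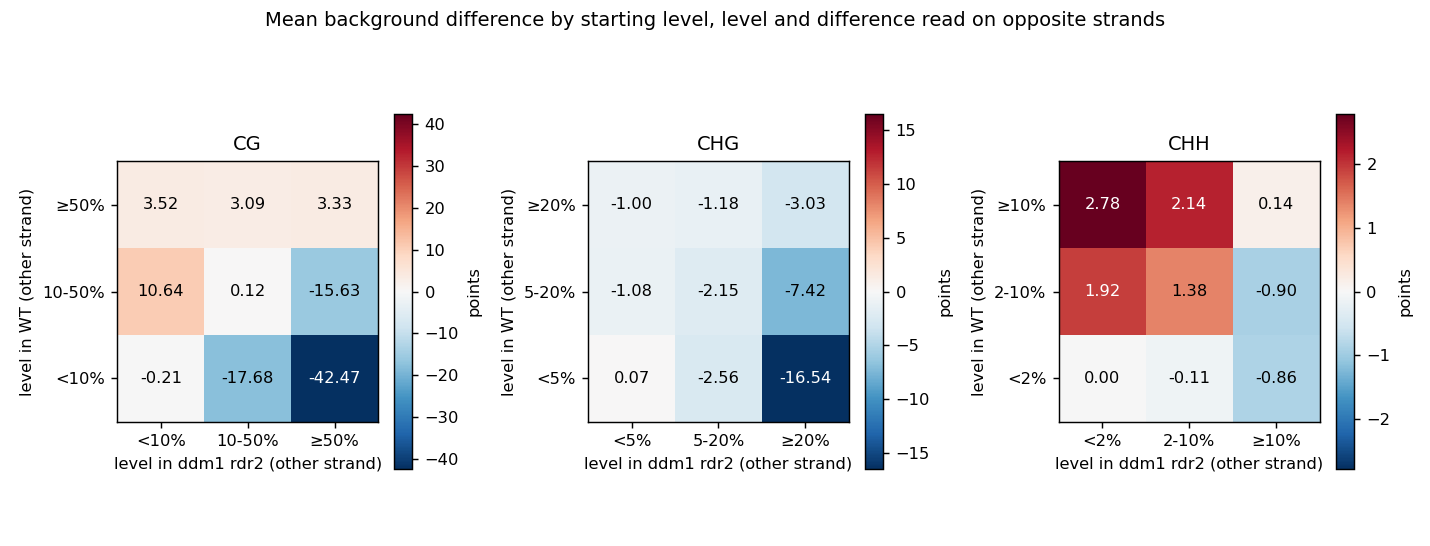
Mean background difference in points (colour and printed value) by the level in WT (y axis, percent) and in ddm1 rdr2 (x axis, percent), with level and difference read on opposite strands. Each context has a panel with its own colour scale. In CG the row high in WT is positive throughout (3.52, 3.09 and 3.33 points), and in CHH that row goes from 2.78 to 0.135 points.

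Single bins were called where the background difference reached 40 points for CG, 20 for CHG or 10 for CHH and its 99% counting interval did not hold 0. This was so for 9437 CG bins (3.13% of those read), of which 5980 (1.98%) were positive and 3457 (1.15%) negative. In CHG 10839 bins (3.24%) were called, 4511 positive (1.35%) and 6328 negative (1.89%). In CHH 19532 bins (3.58%) were called, 11687 positive (2.14%) and 7845 negative (1.44%). Positive calls were the more frequent ones in CG and CHH, and negative ones in CHG. Satellite arrays had the highest share of positive CG calls, 157 of 1419 bins (11.1%), and also of negative ones (2.04%). In 156 of the positive calls only the change in the wild-type background reached 20 points. Mean satellite CG methylation was 4.28% in ddm1 rdr2 and 2.56% in the quadruple mutant. Levels this low leave few bins in which that background could change by 20 points, so this split does not compare the backgrounds. Among positive calls with at least 2 cytosines on each strand, 50 reached 20 points on both strands. The median satellite bin held 34 CG calls in ccr4a ccr4b, against 195 in the pericentromere, and the part of depth in these calls was not tested. The other windows within the array span had the highest share of negative CHG calls, 391 of 3339 bins (11.7%).

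Most called CG bins owed their value to 1 of the backgrounds. A change was counted as present in a background when it reached 20 points for CG, 10 for CHG or 5 for CHH. The wild-type background alone carried 3733 of the positive CG calls (62.4%), in which the mean level was 75.5% for WT, 27.5% for ccr4a ccr4b, 32.3% for ddm1 rdr2 and 37.2% for the quadruple mutant. It also carried 1771 negative CG calls, with 25.8%, 73.8%, 41.9% and 37.9%. The ddm1 rdr2 background alone carried 1128 positive CG calls, with 65.7%, 57.9%, 21.3% and 63.7%, and 1088 negative ones, with 43.4%, 49.6%, 60.1% and 14.7%. Its positive calls were thus on average high in WT, low in ddm1 rdr2 and high in the quadruple mutant. These means describe bins chosen by the same values. The change in the wild-type background rests on the shallowest library. Called CG bins held a median of 57 calls in ccr4a ccr4b, against 110 to 130 in the others, and the part of depth in this split was not tested.

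Changes in opposite directions made up 1061 of the positive and 538 of the negative CG calls, and changes in the same direction 58 and 60. The call rule itself makes the latter rare, because changes in the same direction must still differ by 40 points. Changes in opposite directions instead add up to that size. In CHH the wild-type background alone carried 8581 of the positive calls, with a mean CHH level of 22.4% for WT, 6.88% for ccr4a ccr4b, 3.51% for ddm1 rdr2 and 4.33% for the quadruple mutant. The ddm1 rdr2 background alone carried 1879 negative CHH calls, with 12.2%, 12.9%, 19.99% and 4.24%. Across all bins the change in one background was only weakly correlated with that in the other, and these changes share no library. Pearson's r over bins was 0.0904 in CG, 0.0116 in CHG and 0.0715 in CHH, a description in which bins share depth and base composition. Over bins above the low level in any library it was 0.0926, 0.0153 and 0.0316. Counting error in each change lowers r, so these values do not show that the changes are unrelated.

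**Figure D4:**
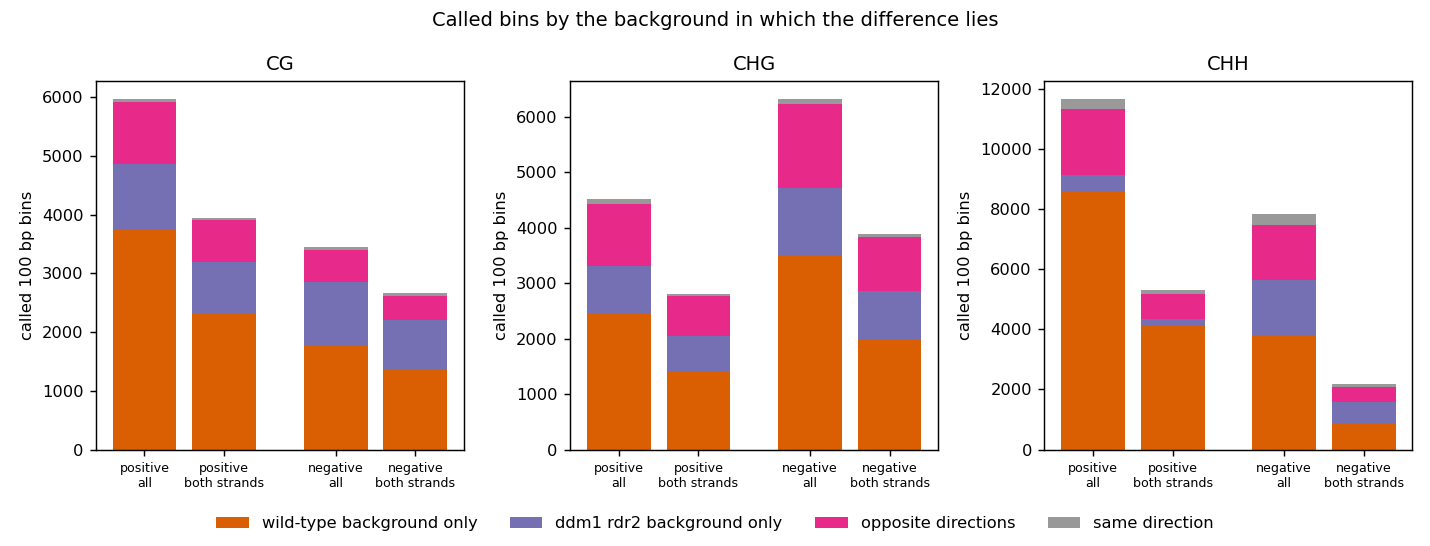
Number of called 100 bp bins (y axis) by direction, for all called bins and for those that reached 20 points in CG, 10 in CHG or 5 in CHH on both strands read alone (x axis). Colours give the background in which the change reached that size. Positive CG bins number 5980 in all and 3949 on both strands, and negative CHH bins 7845 and 2189.

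The strands of a bin are read from different original DNA strands, so bins called on 1 strand alone could be read again on the other. CG cytosines are paired across the strands, whereas the CHH cytosines of the strands are different sites. Bins called on the + strand alone had a mean CG background difference of 57.9 points when positive and -55.1 points when negative, and these bins had 22.5 and -30.6 points on the - strand. In CHG the positive calls of the + strand went from 35.7 to 5.31 points and the negative ones from -35.0 to -6.87 points. In CHH the positive ones went from 17.0 to 3.21 points and the negative ones from -21.0 to -0.423 points. Of the CG calls of the + strand, 28.8% of the positive and 39.4% of the negative ones reached 40 points on the - strand. Over all CG bins with at least 2 cytosines on each strand these shares were 2.89% and 1.65%. Bins called on both strands together are by that choice more likely to have a large value on each. Of the called bins with at least 2 cytosines on each strand, the sizes given above were reached on each strand by 85.2% of positive and 94.6% of negative CG calls. The shares were 77.0% and 75.7% in CHG, and 70.8% and 49.5% in CHH. Negative CHH calls were thus the ones least often seen on both strands.

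Called bins were also poorer in GC and in calls. The share called in CG was 5.403% of bins under 30% GC and 1.05% of bins at 50% GC or more, and in CHH 6.24% and 0.680%. In the same GC classes the median calls per CG cytosine of ccr4a ccr4b were 11 and 43.8. The mean background difference was 1.46 and 0.519 points in CG over these classes, and 0.858 and 0.555 points in CHH. When each cytosine was thinned to 4 calls in each library, 8673 CG, 3360 CHG and 9876 CHH bins were called, against 9437, 10839 and 19532. The part of GC in the calls was not tested. At the edge of the bin rule, CG bins with 4 cytosines had a mean of 1.45 points and those left out with 3 had 2.07 points. The corresponding values were -0.320 and -0.126 points in CHG, and 0.445 and 0.366 points in CHH.

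Called bins of the same context, direction and background at most 100 bp apart were merged, and most stood alone. Of the 3557 merged regions of positive CG calls in the wild-type background, 3393 were a single bin. A rule on the number of bins named 30 merged regions at 26 loci outside satellite windows, of which 17 lay in the arms, 12 in the pericentromere and 1 in the array span. On each strand, 28 of them reached the lower size used above. The exceptions were chr4:3173301-3173800 in CG, with -9.68 points on the + strand and 67.6 points on the - strand, and chr5:21425301-21426100 in CHH, with -14.2 and -1.28 points. Gene annotation was not used here, so positions are given without genes. The values that chose these regions are a description. At 3 loci, chr1:17860301-17861900, chr3:132501-133200 and chr5:5200401-5202400, regions were named in 2 contexts, so that both were used in the choice.

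By number of called bins, the leading region in which CG methylation was lower in ccr4a ccr4b than in WT was chr2:12270301-12270800, in the arm. CG methylation was 70.6% of 1343 calls for WT, 13.7% of 613 calls for ccr4a ccr4b, 11.1% of 1444 calls for ddm1 rdr2 and 12.2% of 1645 calls for the quadruple mutant. WT alone was high, and the 3 mutants were alike. The background difference was 54.6 points on the + strand and 60.6 points on the - strand. CHG methylation was also highest in WT, with 9.52% for WT, 0 of 559 calls for ccr4a ccr4b (which allows up to 0.537%), 0.144% for ddm1 rdr2 and 0.588% for the quadruple mutant. A CHG region of the same kind, chr2:13168601-13169300, had a CHG level of 36.0% in WT and of 2.03%, 1.34% and 0.151% in the mutants. Its CG level was high in all libraries, at 89.8%, 88.2%, 65.2% and 76.7%.

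The reverse was seen at chr3:132501-133100, close to the start of the chromosome, where CG methylation was high in ccr4a ccr4b alone. It was 0.0245% of 4079 calls for WT, 82.1% of 8034 calls for ccr4a ccr4b, 14.1% of 4632 calls for ddm1 rdr2 and 9.37% of 3533 calls for the quadruple mutant. CHG, by which the rule named nearly the same stretch, was 0.266%, 44.7%, 10.4% and 8.33%. CHH, which was not used in the choice, was 0.0276%, 8.04%, 3.73% and 2.24%. The strands gave -88.3 and -85.4 points in CG. Depth moved with the level, with 58.9 calls per listed cytosine in WT and 114 in ccr4a ccr4b, and its part was not tested. At chr1:23475301-23475900 CG was 3.91% for WT, 74.6% for ccr4a ccr4b, 0.242% for ddm1 rdr2 and 0 of 530 calls for the quadruple mutant, which allows up to 0.566%.

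Methylation that was low in ddm1 rdr2 and high in the quadruple mutant was found at chr4:11650201-11650700 and chr2:303501-303900, both in the arms. At the first, CG methylation was 87.9% of 1995 calls for WT, 89.2% of 2324 calls for ccr4a ccr4b, 24.7% of 1677 calls for ddm1 rdr2 and 78.7% of 1862 calls for the quadruple mutant. CHG was 59.8%, 54.2%, 13.4% and 56.2%, and CHH 14.7%, 8.63%, 1.997% and 7.92%. In CG and CHG ddm1 rdr2 alone was low, and the CG background difference was 50.9 points on the + strand and 54.6 points on the - strand. At the second, CG was 92.7%, 91.3%, 0.901% and 66.2%, and CHH 31.2%, 42.1%, 0% (0 of 925 calls, up to 0.324%) and 10.1%. The CHH background difference there was -0.861 points (-4.18 to 2.50), with an interval that held 0. CHG there was 78.6% for WT, 73.0% for ccr4a ccr4b, 0 of 464 calls for ddm1 rdr2 (up to 0.647%) and 52.4% for the quadruple mutant.

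The largest such stretches in CHG lay in the pericentromere of chromosome 1. At chr1:17860301-17861900, with 10 called bins, CHG methylation was 51.1% for WT, 50.9% for ccr4a ccr4b, 10.01% for ddm1 rdr2 and 31.1% for the quadruple mutant. CHH there was 13.5%, 10.2%, 4.002% and 11.2%, and CG was 80.1%, 78.9%, 6.80% and 16.0%. This stretch was named by its CHG and its CHH bins, and the next by its CHH bins, so the higher levels of the quadruple mutant in these contexts follow from the choice. At chr4:8734501-8735100 CHH was 18.3%, 15.1%, 5.76% and 16.1%, and CG 85.1%, 83.0%, 15.1% and 22.8%. At chr1:14202701-14203600 the CHG level was 42.9%, 40.5%, 5.06% and 31.4%.

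Methylation that was low in the quadruple mutant alone was found at chr5:16620401-16621500, which holds both CG regions named for this pattern. In chr5:16621201-16621500, CG methylation was 77.1% of 937 calls for WT, 77.5% of 747 calls for ccr4a ccr4b, 84.3% of 1448 calls for ddm1 rdr2 and 8.47% of 756 calls for the quadruple mutant. CHG was 19.6%, 25.2%, 60.4% and 1.88%, so that ddm1 rdr2 stood above WT and the quadruple mutant below it. The CG background difference was -56.1 points on the + strand and -93.7 points on the - strand. In chr5:16620401-16620700 the CHH level was 8.22%, 11.4%, 34.6% and 1.06%. Depth moved with the level here too, with 40.6 calls per listed cytosine in ddm1 rdr2 and 14.6 in the quadruple mutant, and its part was not tested.

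Another stretch of chromosome 5, chr5:5200401-5202400, had CHG and CHH methylation that was high in ddm1 rdr2 alone. Over chr5:5200901-5202400, with 13 called CHH bins, CHH methylation was 0.189% of 15339 calls for WT, 0.0133% of 7547 calls for ccr4a ccr4b, 15.5% of 22316 calls for ddm1 rdr2 and 2.44% of 14971 calls for the quadruple mutant. CHG was 0.277%, 0.869%, 50.8% and 8.53%. CG methylation was alike in all libraries, at 60.0%, 64.6%, 57.6% and 59.5%. The methylation outside CG that ddm1 rdr2 carried here was thus much lower in the quadruple mutant, while CG was not. Depth moved with the level, with 59.8 calls per listed cytosine in ddm1 rdr2 against 38.7 in WT, 18.2 in ccr4a ccr4b and 39.6 in the quadruple mutant, and its part was not tested. The strands gave -13.4 and -12.5 points in CHH.

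The named region within the array span was chr2:5052001-5053200, with 9 called CHH bins. CHH methylation was 13.9% for WT, 13.3% for ccr4a ccr4b, 24.1% for ddm1 rdr2 and 4.73% for the quadruple mutant, and CHG was 43.4%, 48.3%, 35.4% and 9.62%. The backgrounds moved in opposite directions at chr1:27826401-27826600, where CG was 0 of 137 calls for WT (up to 2.19%), 61.5% for ccr4a ccr4b, 46.7% for ddm1 rdr2 and 9.63% in the quadruple mutant. At chr1:32049001-32049200 CG was 85.4%, 38.7%, 40.2% and 77.2%. Either set of mutations alone went with a lower level there, and all 4 mutations together with a level near that of WT. These 2 regions are shallow, with 111 to 301 CG calls per library.

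**Figure D5:**
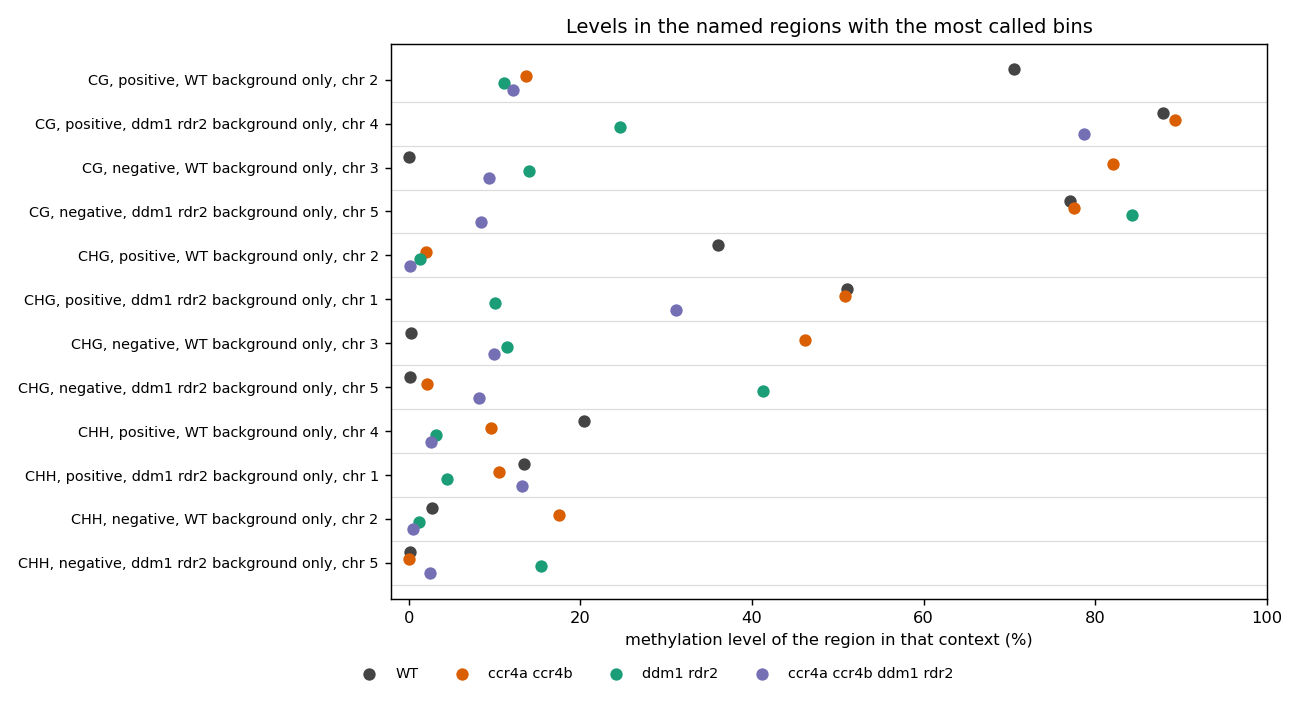
Methylation level (x axis, percent) in the named region with the most called bins for each context, direction and background (y axis, with its chromosome). Points are the 4 libraries, 1 per genotype. In the CG region of chromosome 3 ccr4a ccr4b stands at 82.1% and the others at 14.1% or less, and in that of chromosome 5 the quadruple mutant stands at 8.47% and the others at 77.1% or more.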

How the data were processed

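Enzymatic methyl-seq libraries were made from 100 ng of leaf DNA with 13 PCR cycles, per the labels' protocols, 1 for each of 4 genotypes. The deposited values are counts of methylated and unmethylated calls for each cytosine and strand, made by the authors with Bismark 0.22.3 per the submitters' processing notes. The reference, ColCEN, is known from the names of the deposited files, and the handling of duplicates and of reads with several matches is not given in the sources used here. Covered cytosines had at least 3 calls in each library, and 36.6% of nuclear cytosines had at least 4 in all 4 libraries.

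From these counts the methylated share of all calls was computed per 100 bp bin and context, and the 4 shares were combined into the background difference, with an interval from 4 Wilson intervals (square and add, also called MOVER). A bin was called by its size and its 99% interval. No test between genotypes was possible, and no p-value is given. A 10 kb window counted as satellite where 50% or more of its cytosines recurred at 178 bp. Named were, outside these windows, the 2 merged regions with the most called bins per context, direction and single background, and 1 per context and direction for opposite changes. Values at the starts of a list of 24 genes are not analysed here. The members, lists and rules were chosen with earlier results of these data known. Alternatives changed the minimum calls, bin width, cytosines per bin, depth, weights, call limits, strand, region width and scale. The call rule was also tried on simulated data with known changes, which is no test of the calls made in these libraries. Python 3.11.15, NumPy 2.4.6, SciPy 1.17.1, pandas 2.3.3 and matplotlib 3.10.9 were used.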

Additional observations from a re-analysis of the deposited data

Results flagged for a closer look

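In 5 results the change with ccr4a ccr4b, averaged over bins, had opposite signs in the backgrounds. With 1 library per genotype this difference was not tested. Nuclear CG was -0.906 points in the wild-type background and 0.198 points in ddm1 rdr2, a background difference of 1.10 points. Nuclear CHG was 0.258 and -0.0884 points, a background difference of -0.346 points. CG of the arms was -0.617 and 0.368 points, a background difference of 0.985 points. Pericentromeric CHG was 1.13 and -0.482 points, a background difference of -1.61 points. CHG of the windows within the array span that were not satellite was 1.23 and -3.97 points, a background difference of -5.20 points. With all calls pooled the signs were alike in nuclear CG (4.92 and 0.612 points) and opposite in nuclear CHG (4.19 and -0.0326 points). On the log odds scale of pooled calls they were alike in CG of the arms (0.257 and 0.0822). They were also alike in CHG of those windows (-0.0134 and -0.482), and opposite in pericentromeric CHG (0.0516 and -0.0177).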

How the results depend on the processing

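No paired analysis was possible because each genotype had 1 library, and for the same reason no replicate could be left out. In points, the mean background difference kept its sign in each context under the alternatives run, except in CG with all calls pooled (-4.31 points). On the log odds scale the nuclear CHH value turned to -0.15 with pooled calls and to -0.0030 for the mean of bins, and the nuclear CG value to -0.14 with pooled calls. In CG, CHG and CHH it was 0.830, -0.497 and 0.575 points at a minimum of 10 calls, 1.41, -0.153 and 0.410 points without highly covered cytosines, and 1.38, -0.287 and 0.481 points in bins of 300 bp. With at least 8 cytosines per bin it was 0.801 points in CG and 0.518 points in CHH, and at a minimum of 1 call 1.20 points in CG and -0.302 points in CHG. In CG it was 1.17 points when cytosines were thinned to 4 calls and 1.16 points as a mean of single cytosines, and with all calls pooled it was -4.23 points in CHG and 0.149 points in CHH. Called bins in CG, CHG and CHH numbered 3972, 6283 and 9225 at 10 calls, 4285, 4751 and 7000 in bins of 300 bp, and 2404, 4841 and 10407 at 1.5 times the size. With 8 cytosines per bin 1849 CG and 3502 CHG bins were called, after thinning 3360 CHG and 9876 CHH bins, and with the widest interval tried for a call 5603 CHG and 10517 CHH bins. The reading of each strand alone was added after seeing the data, and left 6696 CHG and 7499 CHH bins. On the log odds scale of pooled calls the sign turned in CG in the arms (-0.17) and satellite (-0.40), in CHG in the arms (-0.39), and in CHH in the arms (-0.19), pericentromere (-0.017) and other windows of the array span (-0.25). With a pericentromere of 1 Mb, CHG of the arms turned to -0.0619 points. Level and difference read on opposite strands turned the sign in CG bins middle in both (0.0552 and 0.189 points), CHG bins high in WT and low in ddm1 rdr2 (-0.964 and -1.04 points), CHH bins middle in both (1.46 and 1.30 points) and CHH bins high in both (0.102 and 0.169 points). The cause of these changes was not tested. Depth limits the reading of AT-rich bins and of satellite arrays, above all in ccr4a ccr4b.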
